A study of Mus musculus with 4 samples.

Results

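The genes described here are the nuclear genes for subunits of 4 enzyme complexes of the mitochondrial inner membrane: NADH dehydrogenase (complex I), the cytochrome bc1 complex (complex III), cytochrome c oxidase (complex IV) and ATP synthase (complex V). They were chosen by symbol as autosomal protein-coding genes that begin with Nduf followed by a, b, c, s or v and a digit, with Uqcr, with Cox4 to Cox8, or with Atp5. This gave 80 of 20665 autosomal protein-coding genes, of which 38 belong to complex I, 8 to complex III, 17 to complex IV and 17 to complex V. Another 3 genes that fit the naming rule, Ndufa1, Ndufb11 and Cox7b, lie on the X chromosome and were not included. The rule uses gene symbols and no measured value, but it was set with earlier results of these data known.

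Complexes I and III pass electrons from NADH and ubiquinol to cytochrome c, complex IV hands them to oxygen, and the proton gradient that they build drives complex V. Cardiac muscle depends on this pathway for most of its ATP. Several subunits exist as isoforms encoded by separate genes, one expressed in most tissues and another in heart and skeletal muscle, lung or testis, so the heart uses a particular mixture of these genes.

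The samples were DNA of left ventricular tissue from 8-week-old C57BL/6 mice, taken 3 days after myocardial infarction. The 4 groups were Neil3-/- infarcted, wild-type infarcted, Neil3-/- non-infarcted and wild-type non-infarcted tissue, with 1 sample each. Neil3 encodes a DNA glycosylase, an enzyme that removes oxidised bases, and the labels give the same time after infarction for the non-infarcted tissue as for the infarcted. The labels do not say how the allele was made or how many animals went into each sample. At Neil3 itself, CCGG sites were listed at 15 positions in Neil3-null and 17 in wild-type infarcted tissue, and at 17 in Neil3-null and 19 in wild-type non-infarcted tissue, so the site list does not check the genotype.

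Each sample had 3 libraries of short tags next to CCGG sites. HpaII cuts CCGG when the inner cytosine is unmodified. MspI cuts it also when that cytosine carries a methyl (5mC) or hydroxymethyl (5hmC) group. In the third library, here called BGT, 5hmC was glucosylated first, which blocks MspI at those sites. The deposited values are a normalized signal, and the 3 libraries of a sample have nearly equal totals, so a ratio between libraries is relative. A high ratio of HpaII to MspI signal means that a region took a larger share of the HpaII library than of the MspI library, as unmodified sites do, and a value of 1 does not mean fully unmodified. A low ratio of BGT to MspI signal is the direction that 5hmC gives. Library totals were 36256700 to 42888100 for HpaII, 33764100 to 41847600 for BGT and 35109300 to 43428600 for MspI, each lowest in wild-type infarcted tissue, and 967498 autosomal sites were listed in all 4 samples. Tag counts are unknown, so no counting interval is given.

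Of 824 sites listed in any sample within 1 kb of the 80 genes, 770 were listed in all 4 and were used. Ratios were formed from summed signal over 3 regions of each gene: the start end (1 kb either side of the annotated start where a strand was given, otherwise the gene end with more sites), the other end, and the body between them. At least 3 sites were required at an end and 5 in a body. The start end could be measured in 62 members, the other end in 17 and the body in 25, while 16 members had neither a start end nor a body measured. Start ends held a median of 4 sites (3 to 9) and bodies 7 (5 to 30), against 4 and 18 over all genes. Of the 316 start-end sites, 136 also lay within 1 kb of another protein-coding gene, which touched 28 of the 62 members.

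The promoters of these genes are rich in the site that the assay reads. RefSeq sequence (GRCm38.p6) from 250 bases before to 50 bases after the annotated start was given for 64 members. A CCGG was present in 55 of the 64 promoters (85.9%), against 63.3% of 16457 promoters of all genes. The letters CCGGAAG, or CTTCCGG on the other strand, are the core that ETS-family factors such as NRF-2 (GABP) bind, and a methylation change read by HpaII at such a site lies inside that core. They were found in 14 member promoters (21.9%), against 12.3% of all. GCATGCGC, or its reverse complement GCGCATGC, the core of the NRF-1 site, was found in 9 (14.1%), against 3.66%. TATAAA or TTTATA was found in 8 (12.5%), against 13.5%. Median GC content was 57.0% in member promoters and 56.7% in all promoters. Both strands were searched, overlaps between motifs were not left out, and a match says only that the letters are there.

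Of 120 CCGG in the 64 member promoters, 67 were listed in all 4 samples. At these 67 sites the median HpaII to MspI ratio was 2.96 in Neil3-null and 2.95 in wild-type infarcted tissue, and 3.04 in Neil3-null and 3.57 in wild-type non-infarcted tissue. The 11 of them that lie in CCGGAAG had medians of 2.67, 3.48, 3.16 and 3.98 in the same order. With 11 sites from 9 genes, no order among the samples is read from the ETS-core sites.

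Promoters are shown for 5 complex IV and complex I genes, 5′ to 3′ on the strand of the gene, with each CCGG in capitals and the annotated start at base 251 of each. Cox8a is shown for its 2 listed CCGG inside ETS cores and its genotype difference, Cox6a1 for an ETS core and an NRF-1 core in a subunit gene used in most tissues, and Cox7a1, a heart and skeletal muscle subunit gene, for having no CCGG. Ndufb3 and Cox7c are shown because their start ends were higher in infarcted tissue of both genotypes. Cox8a lies at chr19:7217567-7217866 (minus strand), Cox6a1 at chr5:115348909-115349208 (minus), Cox7a1 at chr7:30183921-30184220 (plus), Ndufb3 at chr1:58586147-58586446 (plus) and Cox7c at chr13:86046746-86047045 (minus).
Cox8a: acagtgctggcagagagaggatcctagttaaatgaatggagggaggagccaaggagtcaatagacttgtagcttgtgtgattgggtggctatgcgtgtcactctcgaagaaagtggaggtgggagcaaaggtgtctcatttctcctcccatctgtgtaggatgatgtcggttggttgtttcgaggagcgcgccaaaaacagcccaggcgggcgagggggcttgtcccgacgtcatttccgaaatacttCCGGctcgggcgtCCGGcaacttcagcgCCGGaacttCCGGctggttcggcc
Cox6a1: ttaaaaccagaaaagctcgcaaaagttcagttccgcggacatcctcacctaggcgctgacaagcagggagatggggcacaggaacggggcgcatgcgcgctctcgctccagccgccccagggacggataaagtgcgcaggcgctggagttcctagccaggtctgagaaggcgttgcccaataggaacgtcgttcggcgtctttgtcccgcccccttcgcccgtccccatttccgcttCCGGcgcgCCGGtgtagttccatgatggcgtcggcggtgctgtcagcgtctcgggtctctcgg
Cox7a1: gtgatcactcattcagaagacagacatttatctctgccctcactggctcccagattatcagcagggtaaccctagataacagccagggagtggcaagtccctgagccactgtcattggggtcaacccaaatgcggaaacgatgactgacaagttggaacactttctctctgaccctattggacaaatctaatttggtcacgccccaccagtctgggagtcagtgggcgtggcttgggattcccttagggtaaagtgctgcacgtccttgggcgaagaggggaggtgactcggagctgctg
Ndufb3: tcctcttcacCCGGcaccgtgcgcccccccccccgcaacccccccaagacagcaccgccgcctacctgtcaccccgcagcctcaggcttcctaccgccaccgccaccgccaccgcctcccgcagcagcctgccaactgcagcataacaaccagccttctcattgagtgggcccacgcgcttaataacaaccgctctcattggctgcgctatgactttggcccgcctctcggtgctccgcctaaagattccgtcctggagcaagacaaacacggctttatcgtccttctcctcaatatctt
Cox7c: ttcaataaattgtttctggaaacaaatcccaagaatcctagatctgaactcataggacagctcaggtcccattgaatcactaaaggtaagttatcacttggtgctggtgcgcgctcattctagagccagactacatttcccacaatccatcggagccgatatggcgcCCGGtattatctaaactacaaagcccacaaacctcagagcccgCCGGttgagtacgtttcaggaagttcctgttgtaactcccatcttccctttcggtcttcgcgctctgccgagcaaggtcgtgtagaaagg

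Start ends of the member genes were higher in the HpaII to MspI ratio than their bodies in all 4 samples. The median HpaII to MspI ratio over the 62 start ends was 2.12 in Neil3-null and 2.19 in wild-type infarcted tissue, against 2.17 in Neil3-null and 2.19 in wild-type non-infarcted tissue. Over all 11318 genes measured it was 2.21, 2.27, 2.20 and 2.20 in the same order. Over the 25 member bodies it was 0.949 and 0.886 in Neil3-null and wild-type infarcted tissue, and 0.964 and 0.913 in Neil3-null and wild-type non-infarcted tissue. All 13113 bodies had 0.923, 0.909, 0.914 and 0.875. The other ends of 17 members had medians of 0.864, 0.830, 1.06 and 0.860, against 1.17, 1.15, 1.13 and 1.11 over all 3559 genes. Of the 62 member start ends, 30 were above 2 in all 4 samples and 1, Cox8c, was below 1 in all 4.

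At member start-end sites the HpaII signal varied less from site to site than the MspI signal. Between the 10th and 90th percentile, HpaII ran from 50.2 to 152 and MspI from 8.72 to 114 in Neil3-null infarcted tissue, and in wild-type non-infarcted tissue HpaII ran from 53.2 to 155 and MspI from 9.17 to 118.

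**Figure D1:**
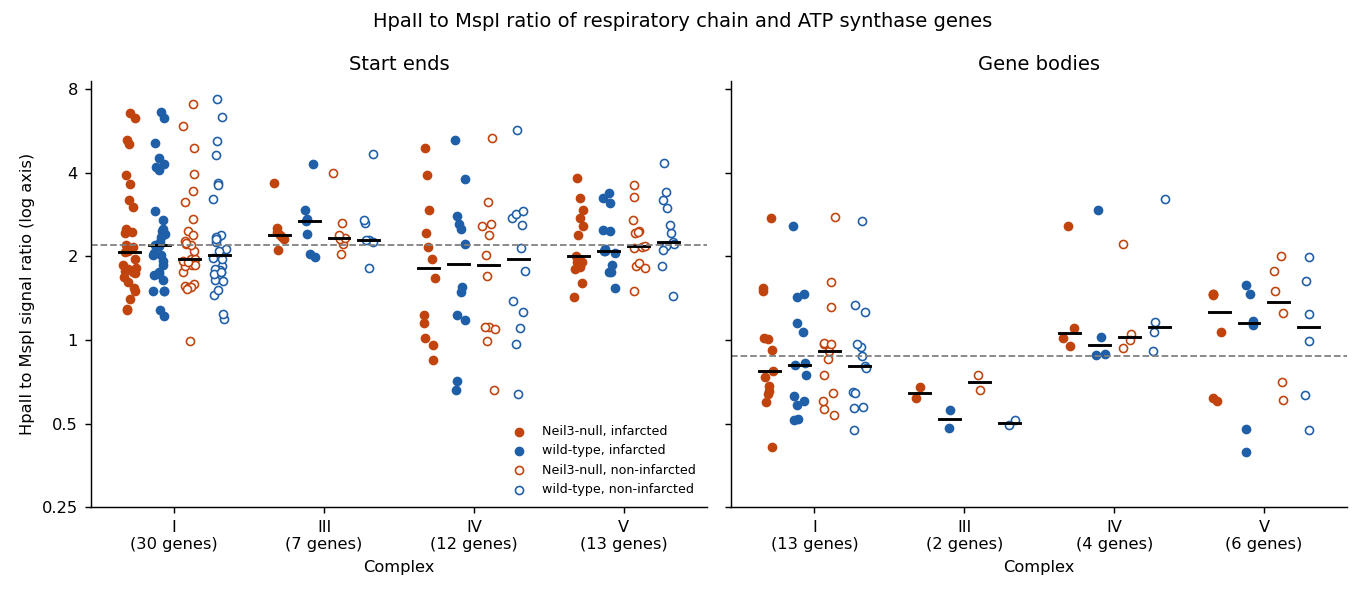
HpaII to MspI signal ratio (log axis) of each measured member at start ends and in gene bodies, by complex, with 1 point per gene and sample and black bars at the medians. The dashed line is the median of all genes in wild-type non-infarcted tissue, and most start ends sit above 1 while bodies spread around it.

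By the mean of the 4 samples, the 2 highest start-end ratios were those of complex I genes. In wild-type infarcted tissue alone Ndufa2, also of complex I, was highest at 6.58. Ndufs7, a core subunit that holds an iron-sulphur cluster, had ratios of 6.54 and 6.29 in Neil3-null and wild-type infarcted tissue, and 7.09 and 7.38 in Neil3-null and wild-type non-infarcted tissue. It ranked between the 97.6th and 99.2th percentile of all start ends. Ndufs4, an accessory subunit needed for a stable complex, came next at 6.31, 5.09, 4.92 and 6.36, followed by Cox7a2l, a supercomplex assembly protein, at 4.92, 5.25, 5.33 and 5.70. These neighbours in the order overlapped across samples. The median of the 30 complex I start ends was 2.08 and 2.19 in Neil3-null and wild-type infarcted tissue, and 1.96 and 2.02 in Neil3-null and wild-type non-infarcted tissue. The 7 complex III start ends had 2.39, 2.68, 2.33 and 2.29, the 13 of complex V 2, 2.09, 2.18 and 2.24, and the 12 of complex IV 1.81, 1.88, 1.86 and 1.96.

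The lowest start ends were mostly those of tissue-restricted complex IV isoforms. No strand was given for Cox8c, Cox6a2, Cox4i2 and Ndufa4l2, so their start end here is the gene end with more sites. Cox8c, the testis form of subunit 8, had 0.849 and 0.710 in Neil3-null and wild-type infarcted tissue, and 0.663 and 0.640 in Neil3-null and wild-type non-infarcted tissue, the lowest of the 62 members on average. Cox6a2, the heart and skeletal muscle form of subunit 6a, had 0.955, 0.662, 1.12 and 1.10 in the same order. Cox4i2, the lung and hypoxia form of subunit 4, had 1.16, 1.18, 0.993 and 0.965, and Cox6b2, a testis form, had 1.23, 1.23, 1.10 and 1.27. These 4 genes and Ndufb4b, at 1.29, 1.22, 0.989 and 1.24, filled the 5 lowest places, and neighbours in that order overlapped across samples. Ndufa4l2, a relative of Ndufa4 that hypoxia induces, had 1.53, 1.5, 1.56 and 1.45 at its start end but 2.75, 2.58, 2.76 and 2.68 in its body.

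Genes for the forms used in most tissues were mostly higher, with 1 exception. Among them Cox4i1 too had no strand given. All start-end sites of Cox4i1 and of Ndufa4 also lie within 1 kb of another protein-coding gene, so their values belong to those genes too. Cox4i1 had 2.93, 2.80, 2.62 and 2.74 and Cox6a1 2.42, 2.62, 2.57 and 2.92, again for Neil3-null and wild-type infarcted and then Neil3-null and wild-type non-infarcted tissue. Ndufa4, named as a complex I gene but known as a complex IV subunit, had 2.08, 2.40, 2.22 and 2.35. Cox8a, the form of subunit 8 used in most tissues, lay near the tissue-restricted genes at 1.01, 1.54, 1.12 and 1.38. Other isoform genes fell short of 3 start-end sites. Over 1 or 2 sites, Cox7a1 had 2.24, 2.84, 1.75 and 1.93, Cox8b, another heart and skeletal muscle form, 1.62, 1.12, 1.98 and 1.43, Cox6b1 3.67, 3.61, 3.62 and 3.11, and Cox7a2 5.40, 5.96, 3.67 and 6.79. The body of the testis gene Cox7b2 had 0.949, 0.889, 0.939 and 0.913.

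**Figure D2:**
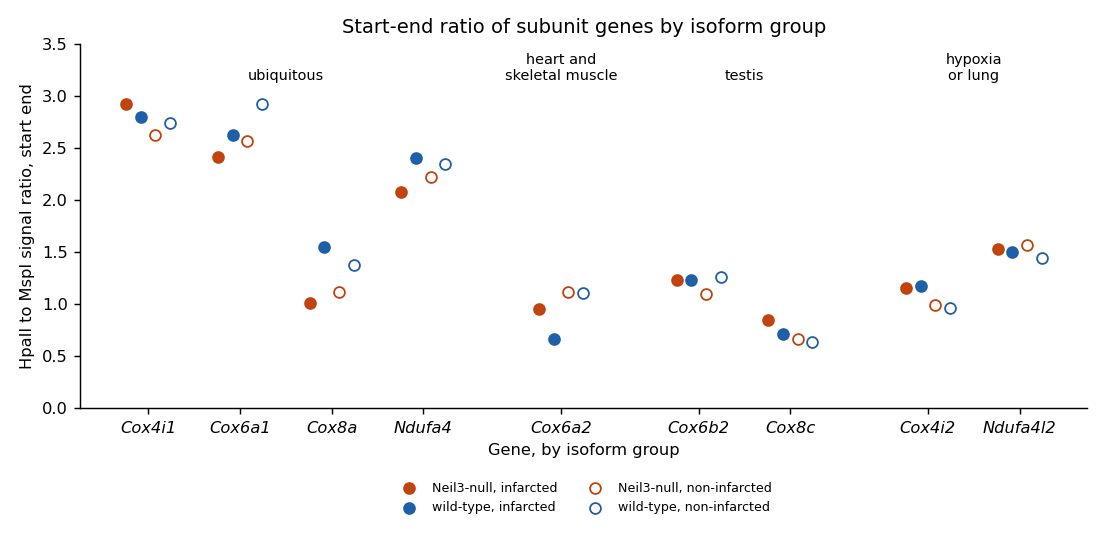
Start-end HpaII to MspI ratio of 9 subunit genes by isoform group, with 1 point per sample. Cox4i1, Cox6a1 and Ndufa4 lie at 2.08 or above in every sample, whereas Cox8a and the heart, testis, lung and hypoxia forms lie at 1.56 or below. For Cox4i1, Cox6a2, Cox8c, Cox4i2 and Ndufa4l2 no strand was given, and the gene end with more sites is shown.

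The 3 genes Atp5g1, Atp5g2 and Atp5g3 encode the same c subunit that forms the rotating ring of ATP synthase. Atp5g1 had start-end ratios of 1.83 and 1.87 in Neil3-null and wild-type infarcted tissue, and 1.84 and 1.85 in Neil3-null and wild-type non-infarcted tissue, nearly the same in every sample. Atp5g2 was higher in every sample, at 3.82, 3.39, 3.6 and 4.32. Atp5g3 had 2 start-end sites, with 2.21, 3.41, 3.47 and 3.11.

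No member passed the test for an infarct difference. The test was limma on the log2 ratio of each gene with infarct and genotype as terms, which leaves 1 residual degree of freedom in these 4 samples, with Benjamini-Hochberg adjustment over all genes measured in the region. For the HpaII to MspI ratio it called 0 of 62 member start ends (2 of 11318 genes, 0.0177%) and 0 of 25 member bodies (0% of 13113 genes). At an unadjusted p under 0.05 there were 7 member start ends (11.3%, against 8.12% of all genes) and 3 member bodies (12%, against 11.3%). The lowest adjusted p of a member was 0.235, for Ndufb3. The values that follow are therefore described with no claim of a difference, and the share of all genes past the same size stands beside each count. Most genes named for infarct or genotype were picked for the size of that difference. Samples that do not overlap are therefore partly built in for them. The share of all genes whose samples separate in this way was not worked out. Differences are in log2 of the ratio, relative to the median gene of the region, also for the sums of a single library, while limma's estimates are not centred.

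At start ends the members as a group sat close to the median gene. The median infarct difference was -0.02 averaged over both genotypes (-0.02 in Neil3-null and -0.02 in wild-type tissue), and it was 0.00191 in the deposited values not set against the median gene. In Neil3-null tissue 8 of 62 members were at least 1.2-fold higher in infarcted tissue (10.2% of all genes) and 3 at least 1.2-fold lower (8.31%). In wild-type tissue 6 were higher (13.4%) and 10 lower (13%). Past 1.2-fold in both genotypes, 3 were higher, Cox7c, Ndufa2 and Ndufb3 (2.45% of all genes), and 1 lower, Atp5e (1.55%). Another, Ndufs4, was past 1.2-fold in opposite directions (2.47%). The counts in single comparisons lie near their background shares.

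Ndufb3, an accessory subunit of the membrane arm of complex I, had start-end ratios of 3.01 and 4.19 in Neil3-null and wild-type infarcted tissue, against 2.47 and 2.39 in Neil3-null and wild-type non-infarcted tissue. Both infarcted samples were above both non-infarcted ones. The difference was 0.28 in Neil3-null and 0.78 in wild-type tissue. The HpaII sum was higher by 0.35 and 0.32, while the MspI sum differed by 0.08 in Neil3-null and -0.45 in wild-type tissue. Of its 4 sites, all also within 1 kb of Fam126b, 3 were higher in infarcted tissue of both genotypes, and the one in the promoter printed above carried ratios of 28.4 and 39.5 in Neil3-null and wild-type infarcted tissue, against 12.4 and 14.2 in Neil3-null and wild-type non-infarcted tissue, over an MspI signal of only 2.42 to 6.45.

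Ndufa2, an accessory subunit of the NADH-oxidising arm, had 5.26 and 6.58 in Neil3-null and wild-type infarcted tissue, against 3.94 and 4.64 in Neil3-null and wild-type non-infarcted tissue, differences of 0.41 and 0.47. All 4 of its sites also lie within 1 kb of another gene (Tmco6 or Ik), and 3 were higher in both genotypes. No strand was given for Ndufa2, so its start end is the gene end with more sites. Without sites of low signal (mean under 10 over the MspI and BGT libraries) the mean difference was -0.20, but with only sites of at least 20 it was 0.36, and with ends of 2 kb it was 0.11. Cox7c, a small membrane subunit of complex IV, had 3.92 and 3.78 in Neil3-null and wild-type infarcted tissue, against 3.14 and 2.58 in Neil3-null and wild-type non-infarcted tissue, over 3 sites. Its differences were 0.31 and 0.52, and 1 of the 3 sites was higher in both genotypes. Uqcr10, a small complex III subunit, had 2.39 and 2.94 in Neil3-null and wild-type infarcted tissue, against 2.21 and 1.81 in Neil3-null and wild-type non-infarcted tissue, differences of 0.10 and 0.67, with an MspI sum lower by 0.57 in wild-type infarcted tissue and an HpaII sum that differed by 0.09. The mean difference was 0.38, but -0.38 at the gene end with more CCGG sites, and 0.21 with the mean of log2 site ratios.

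Cox6a2 had the lowest start-end difference of all members, -0.24 in Neil3-null and -0.77 in wild-type tissue. Its ratios, given above, were lower in both infarcted samples than in both non-infarcted ones. The ratio was lower at 4 of 6 sites in infarcted tissue of both genotypes and at all 6 in wild-type tissue. HpaII sums differed by -0.13 in Neil3-null and -0.50 in wild-type tissue, and MspI sums by 0.11 and 0.28. The gene spans chr7:128205435-128206366 (mm10), its strand was not given, and all 6 sites also lie within 1 kb of Itgad, which encodes an integrin of leukocytes, so the values belong to both genes. Limma gave -0.48 ± 0.15 (SE, adjusted p = 0.318), and with the variance trend on MspI signal the adjusted p was 0.0273. With that trend limma called 62 of 11318 start ends for infarct, against 2 without it. The difference averaged over both genotypes was -0.50, and -0.27 with ends of 500 bp. Atp5e, the epsilon subunit of the F1 part of ATP synthase, had 1.80 and 1.76 in Neil3-null and wild-type infarcted tissue, against 2.15 and 2.21 in Neil3-null and wild-type non-infarcted tissue. Its differences were -0.26 and -0.36, and the mean difference was 0.11 at the gene end with more CCGG sites and -0.20 with ends of 2 kb.

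In gene bodies the median infarct difference was -0.08 averaged over both genotypes (-0.03 in Neil3-null and -0.09 in wild-type tissue), and 18 of 25 members were below the median gene. In Neil3-null tissue 0 members were at least 1.2-fold higher (3.94% of all genes) and 5 at least 1.2-fold lower (4.35%). In wild-type tissue 2 were higher (6.5%) and 4 lower (6.43%). Past 1.2-fold in both genotypes were 0 higher (1.01%), 1 lower, Atp5j2 (0.984%), and 0 in opposite directions (0.663%). Member bodies hold fewer sites than most. Among the 3813 genes with 5 to 10 body sites, a range chosen after the data were seen, 10.2% were 1.2-fold lower in Neil3-null and 13.7% in wild-type infarcted tissue, and of the 18 members in that range 5 and 3 were.

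Complex V held the 2 lowest body differences. Atp5j2, the f subunit of the membrane part of ATP synthase, had body ratios of 1.45 and 1.17 in Neil3-null and wild-type infarcted tissue, against 2.01 and 1.98 in Neil3-null and wild-type non-infarcted tissue. The groups did not overlap. The differences were -0.49 and -0.81, with the HpaII sum lower by 0.28 and 0.43 and the MspI sum higher by 0.21 and 0.38. The ratio was lower in infarcted tissue of both genotypes at 4 of 5 sites. At chr5:145187075 the HpaII signal was 29 and 25.4 in Neil3-null and wild-type infarcted tissue. It was 56.3 and 60.9 in Neil3-null and wild-type non-infarcted tissue. An HpaII signal at least 1.5-fold lower in infarcted tissue, without overlap of samples, was found at 1.19% of 660723 sites screened. Among member sites it was found at 7 of 601, a similar share. No excess in members is read from this site. Limma gave -0.62 ± 0.09 (SE, adjusted p = 0.394).

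Atp5a1, the alpha subunit of the F1 part, had body ratios of 0.601 and 0.396 in Neil3-null and wild-type infarcted tissue, against 0.706 and 0.634 in Neil3-null and wild-type non-infarcted tissue. Here too both infarcted samples were below both others. The differences were -0.25 and -0.73. The HpaII sum differed by -0.23 and -0.77, while the MspI sum differed by 0.03 and -0.04. The ratio was lower in infarcted tissue of both genotypes at 8 of 10 sites, and at all 10 in wild-type tissue. Limma gave -0.46 ± 0.12 (SE, adjusted p = 0.394).

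**Figure D3:**
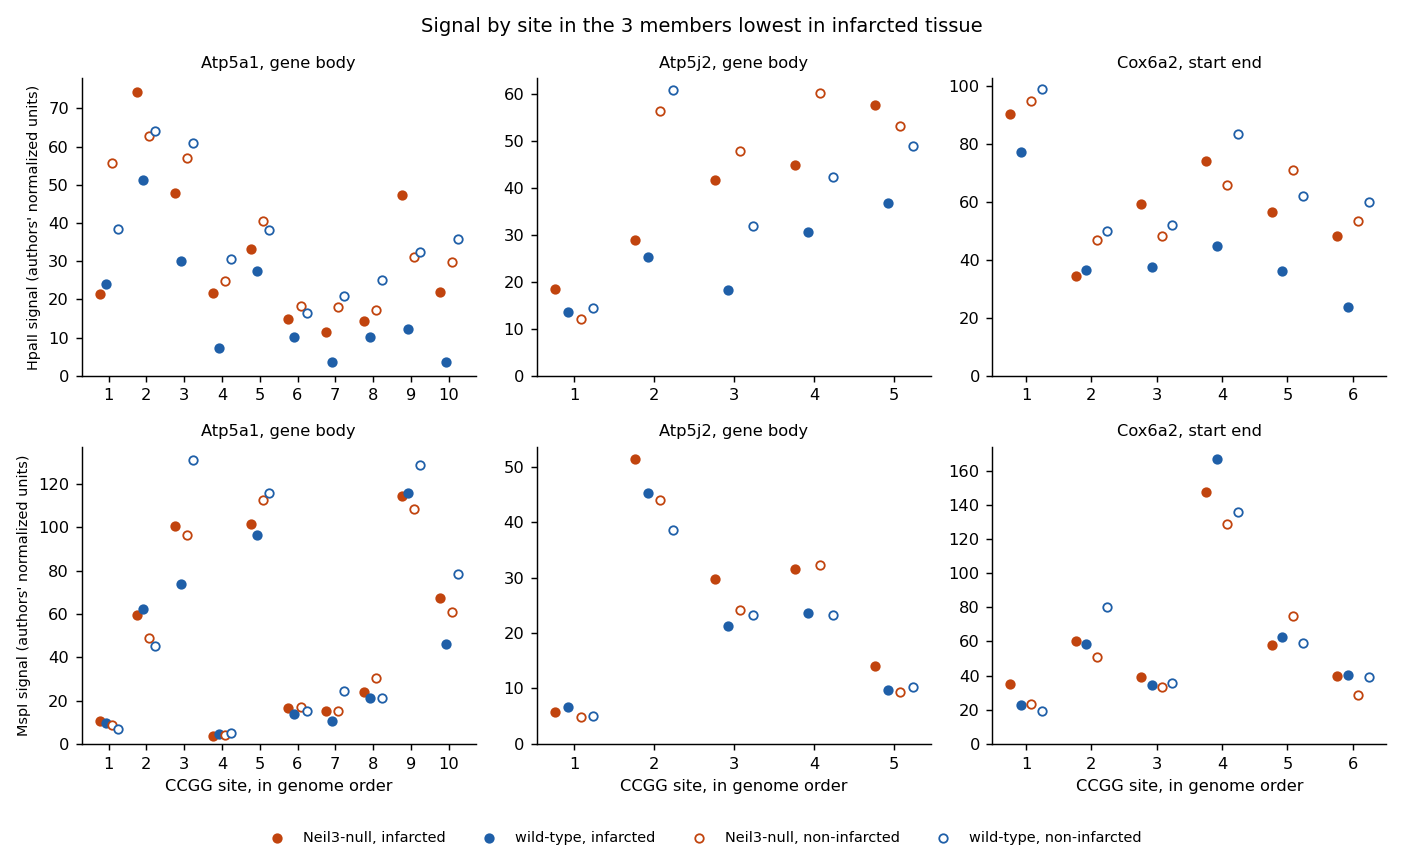
HpaII (top) and MspI (bottom) signal, in the authors' normalized units, at each CCGG site of the Atp5a1 body, the Atp5j2 body and the Cox6a2 start end, in genome order, with 1 point per sample. Wild-type infarcted tissue has the lowest HpaII signal at 9 of 10 sites of Atp5a1 and 5 of 6 of Cox6a2, and its HpaII library also has the lowest total.

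Low values in infarcted tissue recurred across complex V. Averaged over both genotypes, 12 of 13 complex V start ends were below the median gene, with a median of -0.12, and 5 of 6 bodies, with a median of -0.15. Over all genes, 5690 of 11318 start ends and 6541 of 13113 bodies were below. The start-end differences of complex V were mostly small, 1 of them at least 1.2-fold lower in Neil3-null and 5 in wild-type tissue, and taken singly 8 of 13 were below the median gene in Neil3-null and 10 in wild-type tissue. Atp5b, the beta subunit that carries the catalytic sites, had body ratios of 1.46 and 1.46 in Neil3-null and wild-type infarcted tissue, against 1.76 and 1.64 in Neil3-null and wild-type non-infarcted tissue. Complex I start ends were spread evenly, 16 above and 14 below. The other groups also had more genes below than above. These were 5 of 7 start ends in complex III and 7 of 12 in complex IV. In bodies they were 8 of 13 in complex I, 2 of 2 in complex III and 3 of 4 in complex IV. These counts are descriptions of genes in the same 4 samples and were given no test.

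**Figure D4:**
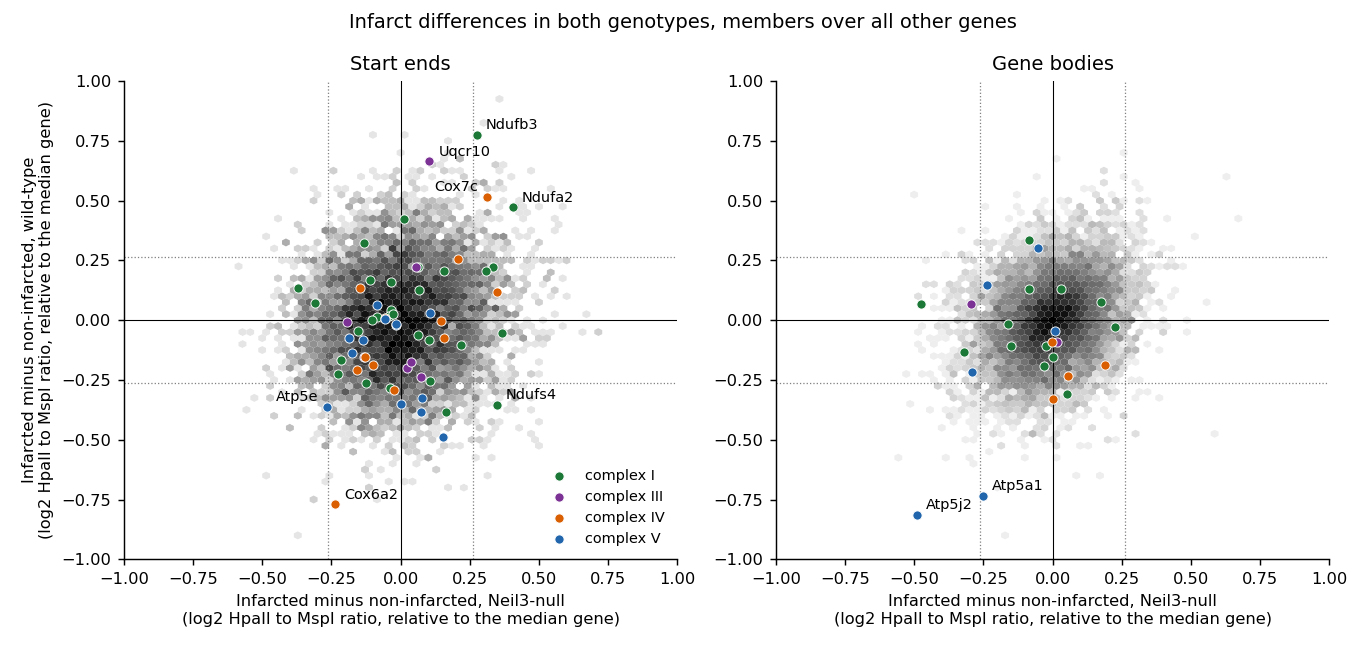
Infarcted minus non-infarcted difference in the log2 HpaII to MspI ratio in wild-type (vertical) against Neil3-null tissue (horizontal), relative to the median gene, for members (coloured by complex) over all other genes (grey, darker where more genes lie). Dotted lines mark 1.2-fold, and Atp5j2 and Atp5a1 lie lowest in the body panel.

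In DNA from whole tissue, a difference within cells and a difference in the mixture of cells cannot be told apart, and genes known as markers of cell types are given here for the same infarct difference. Of the listed cardiomyocyte genes, 10 of 11 measured bodies were below the median gene in infarcted tissue, with a median of -0.22, and their median ratio was 1.03 and 0.899 in Neil3-null and wild-type infarcted tissue, against 1.24 and 1.21 in Neil3-null and wild-type non-infarcted tissue. The most negative was Xirp1, at -0.43. Of the leukocyte genes, 9 of 12 bodies were above it, with a median of 0.12 and Mpo highest at 0.38. At start ends 6 of 8 leukocyte genes were above it, with a median of 0.28, while the medians were -0.07 for 7 cardiomyocyte, 0.05 for 4 endothelial and 0.14 for 3 fibroblast genes. Endothelial bodies had a median of -0.04 (10 genes) and fibroblast bodies one of 0.04 (8 genes). The part of cell makeup in the values of Atp5a1, Atp5j2 and Cox6a2 was not tested.

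Limma called none of the other pathway genes. The 8 measured bodies of complex I assembly factors had a median infarct difference of -0.23, from Acad9 at 0.17 to Ndufaf6 at -0.33, with 3 of 8 above the median gene. The 8 bodies of complex IV assembly factors had -0.10, lowest for Cox17, a copper chaperone, at -0.31. The 13 bodies of coenzyme Q synthesis genes had -0.05, lowest for Coq3, a methyltransferase, at -0.28, and 3 bodies of complex II genes had -0.18. The single body measured for complex V assembly, Atpaf2, had 0.11, and 4 bodies for complex III assembly had -0.08. At start ends the medians were 0.03 for 14 complex I assembly genes, -0.07 for 6 of complex III, -0.09 for 4 of complex V, 0.02 for 9 of coenzyme Q synthesis and 0.12 for 2 of complex II, and of 16 complex IV assembly genes 7 were above and 9 below the median gene. Cycs and Cyc1, which encode cytochrome c and c1, had -0.04 and -0.09.

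No member passed the test for a genotype difference either. Limma called 0 of 62 start ends and 0 of 25 bodies, and none of the 11318 and 13113 genes. At an unadjusted p under 0.05 there were 3 member start ends (4.84%, against 5.98%) and 6 member bodies (24%, against 7.83%). Member bodies hold fewer sites than most (median 7 against 18), and this share was not worked out for genes with as few sites. No excess in members is read from it. The median difference between Neil3-null and wild-type tissue was -0.02 at start ends and 0.03 in bodies. In infarcted tissue 8 start ends were at least 1.2-fold higher in Neil3-null (11.6% of all genes) and 7 lower (11.5%). In non-infarcted tissue 3 were higher (8.94%) and 6 lower (9.52%). Of the bodies, 5 were higher in infarcted tissue (5.33%) and 2 lower (4.49%), and in non-infarcted tissue 5 were higher (4.08%) and 1 lower (3.31%). Among genes with 5 to 10 body sites, 11.9% were higher and 11.1% lower in infarcted tissue, and of the 18 members in that range 4 and 2 were. In non-infarcted tissue 9.91% of these genes were higher and 8.97% lower, and 4 and 1 of the members were.

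Past 1.2-fold in both tissues, 0 start ends were higher in Neil3-null (1.38% of all genes), 1 lower, Cox8a (1.35%), and 2 in opposite directions, Ndufs4 and Uqcr10 (2.57%). Of the bodies 2 were higher, Atp5d and Uqcrc2 (0.694%), 0 lower (0.458%) and 0 opposite (0.808%). Among genes with 5 to 10 body sites, 1.89% were higher in both tissues.

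Cox8a had start-end ratios of 1.01 in Neil3-null and 1.54 in wild-type infarcted tissue, and 1.12 in Neil3-null and 1.38 in wild-type non-infarcted tissue. Both Neil3-null samples were below both wild-type samples. The difference was -0.58 in infarcted and -0.29 in non-infarcted tissue, and limma gave -0.46 ± 0.14 (SE, adjusted p = 0.508, and 0.0328 with the variance trend on MspI signal). With that trend limma called 29 of 11318 start ends for genotype, against 0 without it. The difference averaged over both tissues was -0.43, and with the mean of log2 site ratios in place of the ratio of sums it was -0.19, under the 1.2-fold size. The HpaII sum differed by -0.15 and 0.07, while the MspI sum was higher by 0.42 and 0.36 in Neil3-null. The largest MspI difference among its 6 sites was at chr19:7217472, 141 bases after the start and downstream of the promoter shown. Its MspI signal was 369 in Neil3-null and 209 in wild-type infarcted tissue, and 364 in Neil3-null and 207 in wild-type non-infarcted tissue. Its HpaII signal was 134 and 161, and 147 and 154, in the same order, and its BGT signal was 199 and 105, and 181 and 85.8. At the other end of the gene, the site at chr19:7215299 had an MspI signal of 139 in Neil3-null and 39.0 in wild-type infarcted tissue, and 122 in Neil3-null and 37.5 in wild-type non-infarcted tissue. The CCGG of the printed promoter in the ETS core 2 bases before the start had HpaII to MspI ratios of 3.87 in Neil3-null and 7.92 in wild-type infarcted tissue, and 4.31 in Neil3-null and 5.64 in wild-type non-infarcted tissue. The one 35 bases after it had 1.23, 1.56, 2.11 and 1.35 in the same order.

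Sites of this kind were rare. Among 682441 autosomal sites with a mean MspI signal of at least 20, the lower Neil3-null sample was at least 1.5 times the higher wild-type sample at 0.256%. Of 541 member sites, 3 were of this kind, both of those in Cox8a and 1 in Uqcrc1 at chr9:108937082 (29.8 in Neil3-null and 16.6 in wild-type infarcted tissue, and 32.6 in Neil3-null and 16.2 in wild-type non-infarcted tissue).

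**Figure D5:**
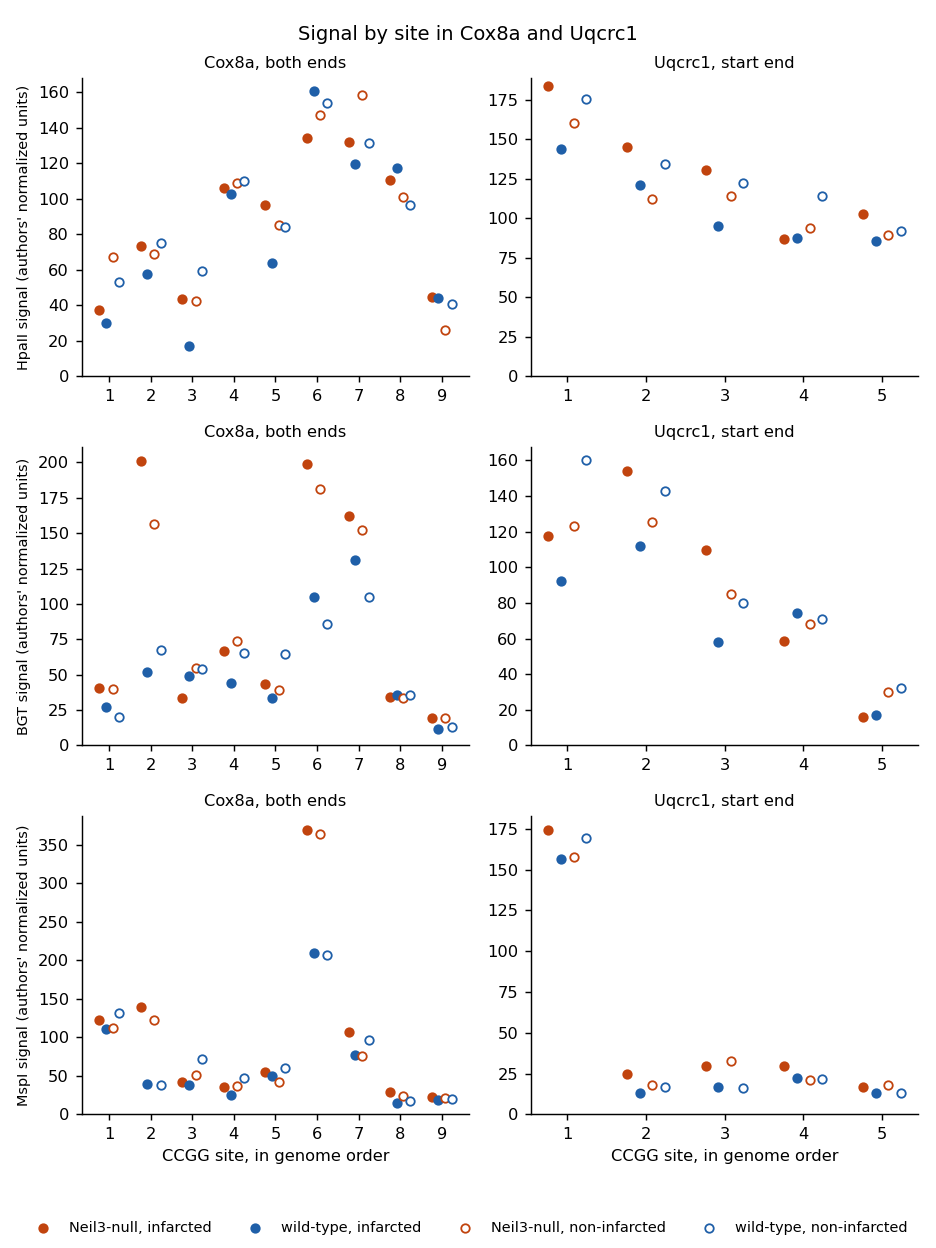
HpaII, BGT and MspI signal, in the authors' normalized units, at the sites of both ends of Cox8a (left) and of the start end of Uqcrc1 (right), in genome order, with 1 point per sample. Sites 2 and 6 of Cox8a carry more MspI and BGT signal in both Neil3-null samples, and so does site 3 of Uqcrc1 in the MspI library.

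In bodies, Uqcrc2 and Uqcrc1, the core proteins of complex III, were both higher in Neil3-null tissue. Uqcrc2 had ratios of 0.677 in Neil3-null and 0.482 in wild-type infarcted tissue, and 0.662 in Neil3-null and 0.495 in wild-type non-infarcted tissue. Its differences were 0.47 and 0.36 over 5 sites, 4 of which were higher in Neil3-null in both tissues (limma 0.45 ± 0.07, SE, adjusted p = 0.56). Uqcrc1 had 0.616 in Neil3-null and 0.558 in wild-type infarcted tissue, and 0.746 in Neil3-null and 0.513 in wild-type non-infarcted tissue. Atp5d, the delta subunit of ATP synthase, had 0.617 in Neil3-null and 0.479 in wild-type infarcted tissue, and 0.607 in Neil3-null and 0.476 in wild-type non-infarcted tissue, and the samples of the 2 genotypes did not overlap (0.36 ± 0.07, SE, adjusted p = 0.56). The opposite case was Cox5a, a complex IV subunit on the matrix side, with body ratios of 2.56 in Neil3-null and 2.93 in wild-type infarcted tissue, and 2.22 in Neil3-null and 3.22 in wild-type non-infarcted tissue. Averaged over both tissues, all 6 complex V bodies were above the median gene, with a median of 0.10, against 6558 of 13113 bodies over all genes. Taken singly, 3 of the 6 were above it in infarcted and 5 in non-infarcted tissue.

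The BGT to MspI ratio, which is lower where 5hmC is present, gave no member call in any of its 4 tests, and no gene was called. At an unadjusted p under 0.05 there were 5 of 62 start ends (8.06%, against 9.98% of all genes) and 7 of 25 bodies (28.0%, against 6.70%) for infarct, and 1 start end (1.61%, against 4.28%) and 4 bodies (16%, against 5.55%) for genotype. These body shares too stand beside all genes, most of which have more body sites, and no excess in members is read from them. The wild-type non-infarcted BGT library stood apart, with an all-gene start-end median of 1.51 against 1.29 and 1.25 in Neil3-null and wild-type infarcted tissue and 1.36 in Neil3-null non-infarcted tissue. Member start ends had 1.23 and 1.14 in Neil3-null and wild-type infarcted tissue, and 1.28 and 1.29 in Neil3-null and wild-type non-infarcted tissue. Every comparison with wild-type non-infarcted tissue rests on that library.

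At start ends, 3 members had a BGT ratio at least 1.2-fold higher in infarcted tissue of both genotypes, Cox4i2, Cox8c and Uqcr10 (2.96% of all genes), 1 lower, Ndufb2 (3.56%), and 3 in opposite directions, Atp5j2, Ndufb3 and Ndufb4b (4.82%). Cox8c had 0.873 and 1 in Neil3-null and wild-type infarcted tissue, against 0.752 and 0.609 in Neil3-null and wild-type non-infarcted tissue. Ndufb2, an accessory subunit of complex I, had 0.799 and 0.665 in Neil3-null and wild-type infarcted tissue, against 1.02 and 1.11 in Neil3-null and wild-type non-infarcted tissue. Ndufs7 had the lowest unadjusted p of a member, with 2.06 and 2.14 in Neil3-null and wild-type infarcted tissue, against 3.48 and 2.96 in Neil3-null and wild-type non-infarcted tissue (limma -0.61 ± 0.21, SE, adjusted p = 0.378). In bodies the lowest was that of Atp5d, with 1.03 and 1.15 in Neil3-null and wild-type infarcted tissue, against 0.871 and 0.88 in Neil3-null and wild-type non-infarcted tissue (adjusted p = 0.744).

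For genotype, 3 start ends had a higher BGT ratio in Neil3-null in both tissues, Cox4i1, Cox4i2 and Ndufa10 (2.68% of all genes), 0 a lower one (3.33%), and 3 were opposite, Ndufb3, Ndufb4b and Ndufs4 (5.64%). Ndufa10, an accessory subunit of complex I, had 1.68 in Neil3-null and 1.21 in wild-type infarcted tissue, and 1.76 in Neil3-null and 1.12 in wild-type non-infarcted tissue. Cox4i1 had 1.33 in Neil3-null and 1.02 in wild-type infarcted tissue, and 1.52 in Neil3-null and 1.25 in wild-type non-infarcted tissue. In bodies the BGT ratio was past 1.2-fold in both genotypes in 0 members higher with infarct (0.595%), 0 lower (0.824%) and 1 opposite, Atp5b (0.938%). For genotype it was higher in both tissues in 1, Uqcrc2 (0.679%), lower in 0 (0.595%) and opposite in 1, again Atp5b (1.11%). Uqcrc2 had 0.613 in Neil3-null and 0.498 in wild-type infarcted tissue, and 0.587 in Neil3-null and 0.373 in wild-type non-infarcted tissue, so both its HpaII and its BGT ratio were higher in Neil3-null bodies, where its MspI sum was lower by 0.25 and 0.19.

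Few member sites were listed in 1 genotype alone. Both wild-type samples listed 789 member sites, of which 3 (0.380%) were in neither Neil3-null sample, 2 in Ndufs4 and 1 in Ndufb3, against 0.748% over all autosomal sites. Of the 786 member sites that both Neil3-null samples listed, 0 were absent from both wild-type samples. The share over all autosomal sites was not worked out in that direction, so nothing is read from this count.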

How the data were processed

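The deposited files hold, for each CCGG site of each sample, the normalized signal of 3 tag libraries (HpaII, glucosylated DNA cut with MspI, and MspI). Site positions follow mm10, as the submitters' processing notes name it. For the aligner and the normalization the sources used here give nothing. Genes and promoters came from RefSeq tables for GRCm38.p6. Sites listed in all 4 samples were summed per gene region and library, and log2 ratios to MspI were formed with no pseudocount. Differences are relative to the median gene, and a size of 1.2-fold (0.263 in log2) was used for counts. limma 3.58.1 (R 4.3.3) fitted infarct and genotype over all genes of a region, with Benjamini-Hochberg adjustment at 0.05. Each group has 1 sample, so the 1 residual degree of freedom measures only how far the 2 terms add up, and p-values carry no spread between animals. Scripts used Python 3.11.15. On simulated data with independent noise, limma was checked only for recovering planted effect sizes. That does not check its calls for groups of 1 sample.

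Named genes are, per complex and region, the 2 highest and 2 lowest infarct differences, the highest and lowest genotype difference, the same for the BGT ratio, all isoform genes, and the ends of each pathway list. Genes named for other reasons (both-genotype counts, single sites) were chosen after their values were seen. The members and lists were chosen with earlier results of these data known. Alternatives changed the signal minimum, window, end, averaging, shared sites, site minimum, scaling and samples. Centred limma and the background for genes with 5 to 10 body sites were chosen after seeing the data. Sites on the sex chromosomes were left out, and the values of 1 member are not reported here.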

Additional observations from a re-analysis of the deposited data

Results flagged for a closer look

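The values here are log2 differences relative to the median gene that were past 1.2-fold in opposite directions in the 2 strata of the design. None of these differences between strata was tested, since each stratum rests on 1 sample a group.

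The infarct difference in the HpaII to MspI ratio of the Ndufs4 start end was 0.35 in Neil3-null and -0.35 in wild-type tissue, and its genotype difference was 0.34 in infarcted and -0.36 in non-infarcted tissue. The genotype difference of the Uqcr10 start end was -0.27 in infarcted and 0.29 in non-infarcted tissue.

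In the BGT to MspI ratio, the infarct difference of the Ndufb3 start end was -0.38 in Neil3-null and 0.47 in wild-type tissue, that of Atp5j2 0.26 and -0.35, and that of Ndufb4b 0.44 and -0.35. The body of Atp5b had 0.47 in Neil3-null and -0.41 in wild-type tissue. The genotype difference in this ratio was -0.36 in infarcted and 0.48 in non-infarcted tissue at the Ndufb3 start end, 0.55 and -0.42 at Ndufs4, and 0.35 and -0.44 at Ndufb4b. It was 0.28 in infarcted and -0.60 in non-infarcted tissue in the Atp5b body.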

How the results depend on the processing

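Of 285 alternative values for 30 infarct differences of named members 272 kept their direction, and of 154 for 16 genotype differences 153 did. Part of this was fixed in advance. The window and end settings leave body ratios as they are. The site minimum, the left-out blocks and the values as deposited do not change a gene's own ratio, only the median gene it is set against. With the gene end that holds more CCGG sites, the infarct difference of the Atp5e start end was 0.107 and that of Uqcr10 -0.382, and with sites under a mean signal of 10 left out that of Ndufa2 was -0.195. The cause was not tested.

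The median infarct difference of member start ends was -0.0328 with sites of at least 10 and -0.0353 with at least 20, -0.0510 with ends of 500 bp, -0.0383 with 2 kb, -0.0168 at the end with more sites, -0.0411 with mean log2 site ratios, -0.0871 without shared sites, -0.00282 with at least 5 sites at an end and 10 in a body, 0.00191 as deposited, -0.0390 at equal totals and -0.0236 without genes in 3 blocks of chromosomes 1 and 8. The median genotype difference was -0.00821, -0.0192, -0.0430, -0.0172, -0.0297, -0.0354, -0.0200, -0.0197, -0.0432 and -0.0723 under the first 10 of these settings in the same order. In bodies the median infarct difference was -0.0422 with mean log2 site ratios and -0.0397 as deposited, and the median genotype difference 0.0739 with sites of at least 20, 0.0773 with mean log2 site ratios and 0.0688 as deposited.

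With the limma variance trend on MspI signal, 1 member start end was called for infarct (Cox6a2) and 1 for genotype (Cox8a). Over all 11318 genes that setting called 62 for infarct and 29 for genotype. With ends of 500 bp, 1 member was called for genotype, among 11 of 6302 genes. These calls were all in the HpaII to MspI ratio, where the main fit called 2 genes for infarct and 0 for genotype. Leaving the other factor out of the limma model called 0 members in all 8 tests. Leaving out 1 sample together with that factor, since 3 samples leave no residual degree of freedom for both terms, gave 0 to 6 calls for infarct and 0 to 3 for genotype in the BGT ratio at start ends. These fits assume that a lone sample varies like the others, and the difference for one factor there also holds part of that for the other. The 6 came without Neil3-null non-infarcted tissue, when 1395 of 11318 genes were called, and the 3 without wild-type infarcted tissue, when 1150 were. Centred limma, added after seeing the data, called 0 members in all 8 tests. No paired analysis was possible because each group has 1 sample. With unknown tag counts and few sites a gene, counting error could not be separated from other spread.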
